A study of Petromyzon marinus with 17 samples.

Results

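Non-methylated islands (NMIs) of sea lamprey sperm were compared with those of day 1 embryos, using the interval lists deposited for 2 replicate libraries of each. In each tissue an NMI was a stretch of bases listed in both replicates. A sperm NMI was called kept when it shared at least 1 base with a day 1 NMI and lost when it shared none, and a day 1 NMI that shared no base with a sperm NMI was called gained. Lost and gained thus describe the lists, and mean that no NMI was listed at that place in both replicates of the other tissue. Sperm held 125193 NMIs and day 1 held 106301, which merged into 130359 stretches of the 166793 obtained when the NMIs of all 6 tissues were merged. The sperm came from adult animals and the day 1 samples were embryos at embryonic day 1. Neither group carried a treatment or a genetic alteration according to the labels, and the study describes its libraries as biological replicates. How many animals or embryos entered a sperm or day 1 library is not stated in the sources used here. The series also holds lists of day 2 embryos and of adult peripheral blood mononuclear cells (PBMC), brain and muscle, which served as readouts that had no part in calling an NMI kept, lost or gained. Brain and muscle replicates came from fish of both sexes, and PBMC replicates from different males. Interval lists hold no expression, so the tissue labels could not be checked against marker genes.

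The assay, BioCAP, pulls down sonicated genomic DNA with the biotinylated CxxC domain of human KDM2B, a zinc finger that binds CpG sites lacking methylation. Clusters of such sites form NMIs, which in vertebrates often coincide with CpG islands and gene promoters and stay free of the methylation that covers much of the genome. In the first days of lamprey development the methylome that comes with the egg is remodelled towards that of sperm. Also in early embryogenesis, some germline DNA is discarded from somatic cells in programmed genome rearrangement, which the study describes as progressive. The question addressed here was which NMIs of sperm were listed in the day 1 embryo.

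The sperm lists held 124181 NMIs in replicate 1 and 141295 in replicate 2, covering 82.3 and 86.2 Mb. The day 1 lists held 119911 and 117229 NMIs, covering 63.3 and 64.4 Mb. NMIs of sperm were wider and more enriched: the median width was 524 and 475 bp in sperm against 418 and 437 bp in day 1, and the median fold enrichment over background was 12.1 and 11.4 against 8.04 and 8.16. The lists carry no read counts, but the study's mapping table lists far fewer uniquely mapped read pairs for day 1 than for sperm. The lists bear a trace of that gap. Among NMIs with a fold enrichment between 9 and 11, −log10 q had a median of 43.6 and 45.6 for the sperm libraries and 16.5 for both day 1 libraries, so the same enrichment rested on weaker statistical evidence in day 1. Depth and tissue coincide in these 4 libraries and cannot be told apart for an NMI that was lost.

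Most sperm NMIs were kept and almost all day 1 NMIs were already present in sperm. Of the sperm NMIs, 93996 (75.1%) were kept and 31197 (24.9%) were lost. Of the day 1 NMIs, 100859 (94.9%) overlapped a sperm NMI and 5442 (5.12%) were gained. Over the 4 pairings of 1 sperm with 1 day 1 library, the share lost was 21.7% ± 3.76 (SD, n = 4 pairs that share libraries) and ranged from 18.3% to 25.1%. The share gained was 7.27% ± 2.07 (SD, n = 4 pairs) and ranged from 5.18% to 9.76%, so the ranges of lost and gained shares did not overlap. The sperm lists were the longer ones, which by itself makes a lost share larger than a gained one. Many lost NMIs were listed in 1 of the day 1 replicates: 8439 overlapped an interval of day 1 replicate 1 alone and 8815 overlapped one of replicate 2 alone, and a further 121 met both without shared bases. That left 13822 sperm NMIs (11.0%) with no interval in either day 1 replicate. On the gained side, 2184 NMIs overlapped an interval of sperm replicate 2 alone and 216 one of sperm replicate 1 alone, 5 met both, and 3037 day 1 NMIs (2.86%) had no interval in either sperm library. The count of gained NMIs changed when a library was left out. The tissue was then taken from its other list alone, without the rule of both replicates. It was 3253 without sperm replicate 1, 5221 without sperm replicate 2, 9963 without day 1 replicate 1 and 12084 without day 1 replicate 2.

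An NMI of a day 1 library was found in sperm more often than in the other day 1 library. Of the NMIs of day 1 replicate 1, 9.76% were absent from sperm replicate 1 and 6.04% from sperm replicate 2, but 13.2% were absent from day 1 replicate 2. Of those of day 1 replicate 2, 8.11% and 5.18% were absent from the sperm libraries and 12.1% from day 1 replicate 1. The sperm lists were longer, which makes an overlap easier. When each library was trimmed to its 117229 NMIs with the largest −log10 q, the order held but the gap narrowed, to between 10.2% and 11.2% absent from sperm against 12.4% and 13.1% absent from the other day 1 replicate. The opposite direction was different. Sperm replicates missed 1.33% and 12.4% of each other's NMIs, whereas the day 1 libraries missed between 18.3% and 25.1% of the NMIs of a sperm library. With the trimmed lists this gap narrowed too. Sperm replicates then missed 5.77% and 5.07% of each other's NMIs, and day 1 libraries 15.6% to 17.1% of those of sperm. The latter lay closer to the 12.4% and 13.1% between the trimmed day 1 replicates.

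**Figure D1:**
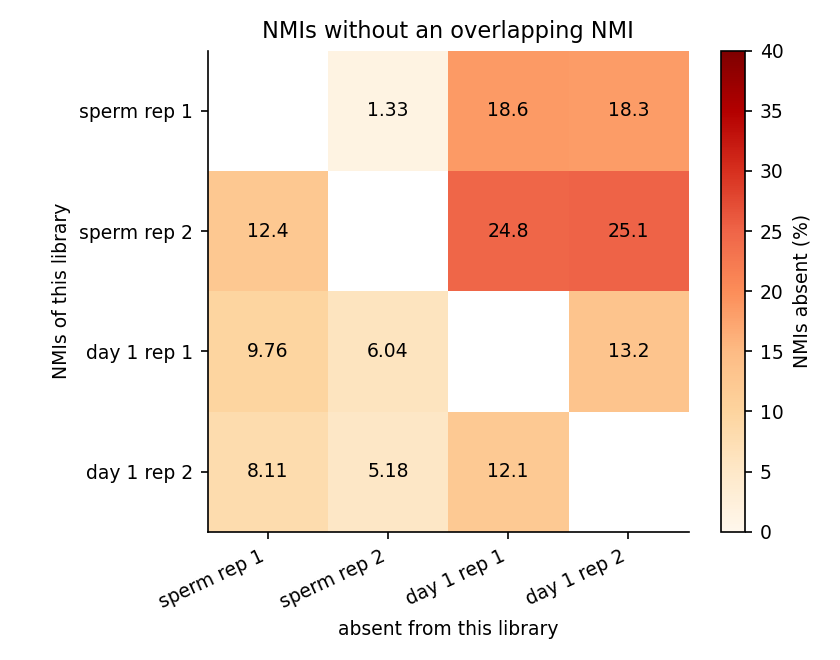
Share of the NMIs of each library (rows, %) that shared no base with any NMI of another library (columns), for the 2 sperm and 2 day 1 replicates with lists as deposited. Sperm NMIs absent from day 1 libraries (18.3% to 25.1%) are the darkest cells, and the day 1 rows are paler under the sperm columns (5.18% to 9.76%) than under the other day 1 replicate (12.1% and 13.2%).

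By bases, the Jaccard index, the number of bases shared by a pair of lists over the bases in either, was 0.839 between the sperm replicates and 0.693 between the day 1 replicates. It was 0.654 ± 0.0132 (SD, n = 4 pairs) between a sperm and a day 1 library, with each of those pairs between 0.642 and 0.671. The mean within tissues exceeded that between tissues by 0.112. This was the largest difference among the 3 ways to split 4 libraries into pairs, which gives a one-sided p of 0.333 in an exact permutation test, the smallest that the design allows. The day 1 replicates were thus little closer to each other than to sperm on this measure.

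Detection in day 1 followed the enrichment of the NMI in sperm. Sperm NMIs were ranked by the smaller of their fold enrichments in the sperm replicates and divided into deciles. In the weakest decile, at a fold enrichment of 1.15 to 4.14, 30.7% were found in day 1. The share was 53.0% in decile 3, 80.5% in decile 5 and 94.7% in decile 7, and reached 99.8% in the strongest decile, at a fold of 30.0 or more, where 19 of 12519 NMIs were missing. The same strongest decile was missed more often by adult tissues, with 216 NMIs absent from brain, 199 from muscle and 659 from PBMC, while day 2 missed 23. The order turned at the weak end, where brain held 50.6% and muscle 41.3% of the weakest decile, PBMC 31.1% and day 2 only 8.59%. Embryos therefore missed fewer of the strongest sperm NMIs than adult tissues did, and more of the weak ones than brain and muscle. Most day 1 NMIs of each decile were found in sperm. Of the weakest decile of day 1 NMIs, at a fold of 1.71 to 4.32, 79.4% were found in sperm, and of the strongest, from a fold of 15.8, 99.9% were found, with 10 of 10630 missing. Day 2 missed 5 of that strongest decile, fewer than sperm, and brain missed 207, muscle 181 and PBMC 694.

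**Figure D2:**
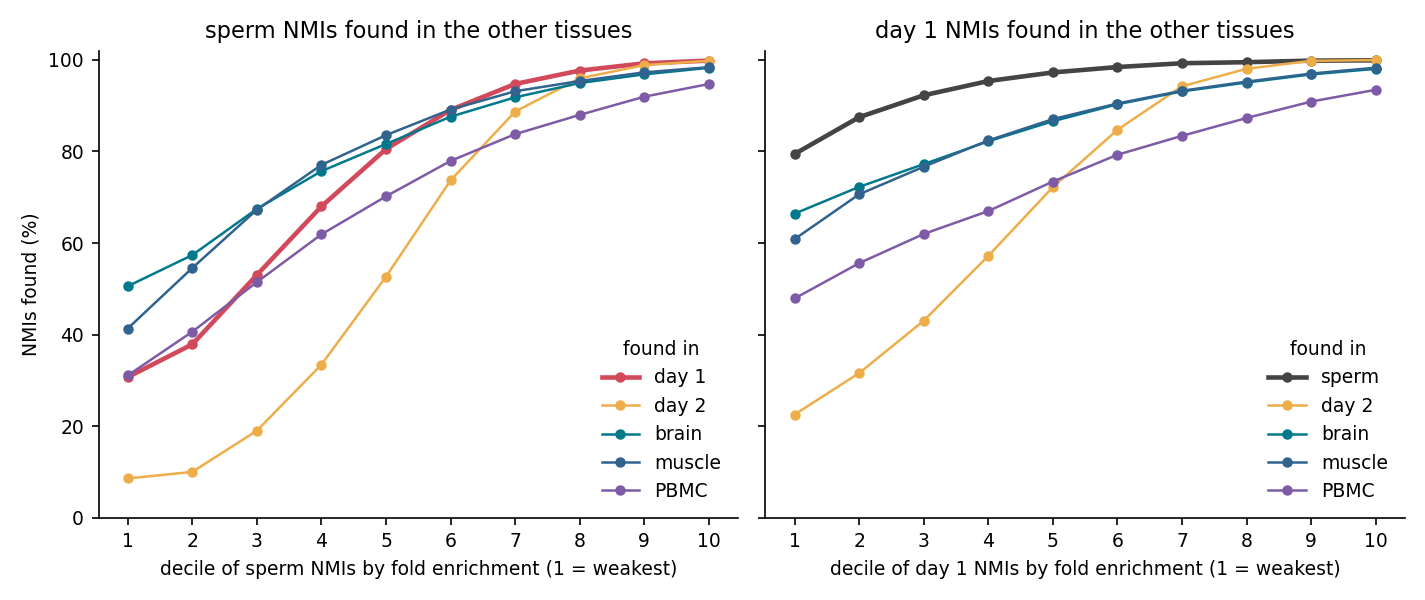
Share of sperm NMIs (left) and day 1 NMIs (right) found in each other tissue (y axis, %), by decile of fold enrichment from weakest to strongest (x axis). In the left panel day 1 rises from 30.7% to 99.8% and crosses the adult tissues, and in the right panel sperm lies above the other tissues in the weaker deciles, from 79.4% upwards.

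Lost NMIs were weak in sperm. Their median fold enrichment was 5.57 and 6.65 in the sperm replicates, against 16.4 and 17.0 for kept NMIs, and their median −log10 q was 15.9 and 22.7 against 98.1 and 109. The weakest 3 deciles of sperm NMIs held 22327 of the lost ones, the middle 4 deciles 8466 and the strongest 3 deciles 404. Of those 404, 91 had no interval in either day 1 replicate. These strong but lost NMIs were mostly listed elsewhere, 59.7% of them in day 2 and 91.1% in at least 1 adult tissue, although less often than kept NMIs of the same deciles, at 98.6% and 98.5%. In the weakest 3 deciles the shares were 3.86% of lost against 25.3% of kept NMIs in day 2, and 64.9% against 77.6% in an adult tissue. Gained NMIs were weak in day 1 as well, with a median fold of 5.23 and 5.04 against 9.27 and 9.46 for kept ones. Of the 5442 gained NMIs, 4337 lay in the weakest 3 deciles of day 1 NMIs and 80 in the strongest 3. Of those 80, 62 had no interval in either sperm replicate. Day 2 held 92.5% of the 80, and at least 1 adult tissue held 83.75%. For gained NMIs in the weakest 3 deciles the shares were 13.6% and 57.5%. The share in day 2 rose with fold for day 1 NMIs in general. Of all day 1 NMIs, it held 98.1% to 99.95% per decile in the strongest 3 and 22.5% to 43.0% in the weakest 3. In both groups day 2 thus held gained NMIs less often than day 1 NMIs of like fold.

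Lost and gained NMIs were narrow. The median width of lost NMIs was 321 bp (quartiles 276 and 389), against 560 bp (424 and 837) for kept sperm NMIs. The ratio of these medians was 0.573, and over the 4 pairings of single libraries it was 0.570 ± 0.0217 (SD, n = 4 pairs). Gained NMIs had a median width of 262 bp (238 and 321), against 404 bp (307 and 590) for kept day 1 NMIs, with a ratio of 0.649, and of 0.649 ± 0.0097 (SD, n = 4 pairs) over single libraries. The share lost fell with width, from 69.9% in the narrowest quintile of sperm NMIs, up to 334 bp, to 1.50% in the widest, from 817 bp. The share gained fell from 15.3% in the narrowest quintile of day 1 NMIs, up to 281 bp, to 0.564% in the widest, from 645 bp. The widest lost NMI was 2261 bp long, whereas kept NMIs reached 9748 bp. Width rose with fold, and lost NMIs were mostly weak. In the weakest 3 deciles of sperm fold, which held 22327 lost NMIs, the medians were 296 bp for lost and 354 bp for kept NMIs. They were 387 and 500 bp in the middle 4 deciles and 475 and 754 bp in the strongest 3. Lost NMIs were thus narrower at like fold too, but by less in the weakest deciles.

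**Figure D3:**
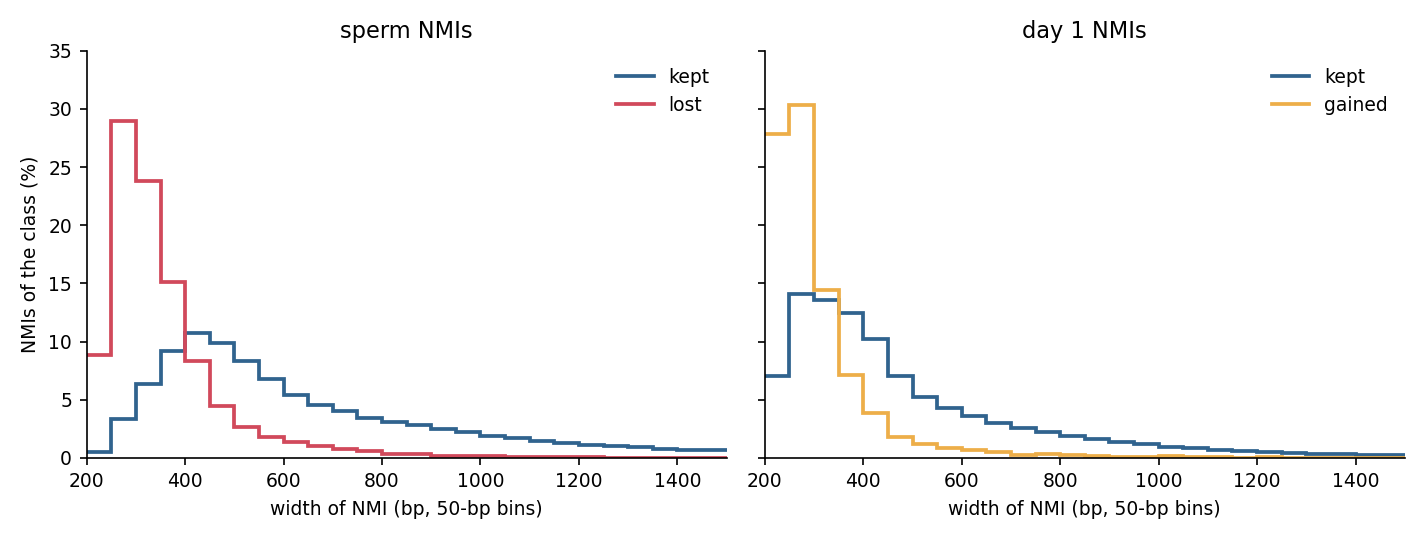
Widths of sperm NMIs kept and lost (left) and of day 1 NMIs kept and gained (right), as the share of each class (y axis, %) in 50-bp bins (x axis, bp). Widths under 200 bp or over 1500 bp are not drawn. The lost and gained curves peak at 250 to 300 bp, and the kept sperm curve peaks at 400 to 450 bp. The kept day 1 curve also peaks at 250 to 300 bp, but lower (14.1% against 30.4% of gained NMIs).

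Kept NMIs were narrower in day 1. Of them, 87066 paired 1 sperm NMI with 1 day 1 NMI, with a median width of 538 bp in sperm and 401 bp in day 1. The day 1 NMI was narrower in 92.0% of these pairs and wider in 7.87%, and the median ratio was 0.797. It lay wholly inside the sperm NMI in 77.6%. The start and the end each moved inward by a median of 52 bp. Day 1 NMIs were narrower by a median of 55 bp in the narrowest quintile of these sperm NMIs and by 165 bp in the widest. Relative to sperm width the order differed, with a median ratio of 0.838 in the narrowest quintile, 0.763 in the middle and 0.849 in the widest. The narrowing exceeded that between replicates: among intervals of single libraries paired 1 to 1, the median width ratio of day 1 to sperm was 0.832 to 0.869, against 0.982 between sperm replicates and 1.02 between day 1 replicates. The fold enrichment of day 1 was 0.597 to 0.632 times that of sperm at these pairs, against 1.05 and 1.01 between replicates. The ranges for pairs across tissues and pairs of replicates did not overlap on either measure. The part of depth in the width was not tested.

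The summits of kept NMIs stayed close. The interval summits of a sperm and a day 1 library lay a median of 29 to 31 bp apart, farther than between sperm replicates (20 bp) and closer than between day 1 replicates (36 bp). Spearman's rho of the fold enrichment across paired NMIs was 0.947 between sperm replicates (117109 NMIs), 0.795 between day 1 replicates (95866 NMIs) and 0.694 to 0.747 between a sperm and a day 1 library (93056 to 98257 NMIs). The rank of NMIs by fold thus differed more between the tissues than between replicates. These are descriptions across NMIs, which are not replicates of a tissue. A sperm NMI was broken into several day 1 NMIs in 6431 cases (6.84% of those kept). These were broad, with a median sperm width of 1402 bp. The most broken was the 4876 bp NMI at PIZI01000002v1:7253170-7258045, which held 6 day 1 NMIs. The reverse was rare, with 266 day 1 NMIs (0.264%) that joined several sperm NMIs.

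More of the sperm NMI bases outside day 1 NMIs lay in kept NMIs than in lost ones. Kept NMIs held most sperm bases (65.9 Mb) in the first place. Sperm NMIs covered 76.9 Mb and day 1 NMIs 52.3 Mb, with 49.7 Mb in common, or 64.6% of the sperm and 95.0% of the day 1 bases. Of the 27.2 Mb of sperm NMIs outside day 1 NMIs, 16.2 Mb (59.4%) lay in kept NMIs and 11.1 Mb (40.6%) in lost ones. Bases listed in 1 day 1 replicate only are among these 27.2 Mb. Of the bases in kept NMIs, 13.1 Mb were in NMIs paired 1 to 1 and 3.01 Mb in those broken into several day 1 NMIs. Of the 2.63 Mb of day 1 NMIs outside sperm NMIs, 1.61 Mb (61.2%) lay in gained NMIs and 1.02 Mb (38.8%) at kept ones. Bases listed in 1 sperm replicate only are likewise among them.

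The other 4 tissues gave a readout that the classes did not use. Day 2 held 73.9% of kept sperm NMIs, brain and muscle 87.6% each and PBMC 76.9%. The corresponding shares of lost NMIs were 10.4%, 58.0%, 56.0% and 45.9%. The share was lower for lost NMIs in each of the 4 tissues, by a mean of 38.9 points (difference −38.9 ± 16.4, SD, n = 4 tissues). The two-sided exact sign-flip permutation test gave p = 0.125, the smallest possible with 4 tissues. Day 2 stood apart with a difference of −63.5 points, against −29.6 in brain, −31.6 in muscle and −31.0 in PBMC. Fold in sperm was not held equal in this test. Lost NMIs were the weaker ones, and the share found rose with sperm fold in each of these tissues. Within the weakest 3 deciles day 2 held 3.86% of lost and 25.3% of kept NMIs, and brain 52.4% and 67.4%. Muscle held 48.0% and 63.8% there, and PBMC 38.1% and 45.5%. Day 2 lists, like those of day 1, had low −log10 q for their fold enrichment, 15.5 and 15.9 at a fold of 9 to 11, against 31.2 to 57.6 in the 6 adult somatic libraries. Most lost NMIs were listed in a somatic tissue, but less often than kept ones. Of the lost NMIs 70.6% were found in at least 1 of brain, muscle and PBMC, 36.2% in all 3, and 8882 (28.5%) in no other tissue. The corresponding shares of kept sperm NMIs were 92.7%, 73.4% and 4.64%. For the 13822 without an interval in either day 1 replicate day 2 held 3.78%, brain 50.3%, muscle 48.9% and PBMC 41.3%.

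Day 2 held 21.8% of gained NMIs, brain 50.7%, muscle 47.0% and PBMC 26.9%. All 4 shares were lower than those of kept day 1 NMIs, with a mean difference of −44.5 points ± 6.96 (SD, n = 4 tissues, exact two-sided sign-flip p = 0.125). Fold in day 1 was not held equal there either, and gained NMIs were the weaker ones. At least 1 adult tissue held 61.6% of gained NMIs, against 92.7% of kept day 1 NMIs. In no other tissue were 1819 gained NMIs (33.4%), against 4.65% of kept day 1 NMIs. Compared with lost NMIs, gained NMIs were found more often in day 2 and less often in PBMC, and this held in both replicate libraries of each tissue. Muscle separated as PBMC did, with 49.2% and 52.1% of gained against 59.6% and 60.2% of lost NMIs. In day 2 the libraries held 30.7% and 31.4% of gained against 18.6% and 19.9% of lost NMIs, and in PBMC 28.7% and 33.5% against 48.6% and 52.7%. Brain replicate 2 held 63.2% of gained NMIs and brain replicate 1 held 51.8%, against 69.0% and 60.0% of lost ones, so the ranges of the classes overlapped in brain. These differences between lost and gained were not tested. The direction in day 2 turned when only the strongest 50000 NMIs of each library were used, with 90.3% of gained and 92.4% of lost NMIs found there, and with the strongest 25000, at 98.9% and 99.3%.

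**Figure D4:**
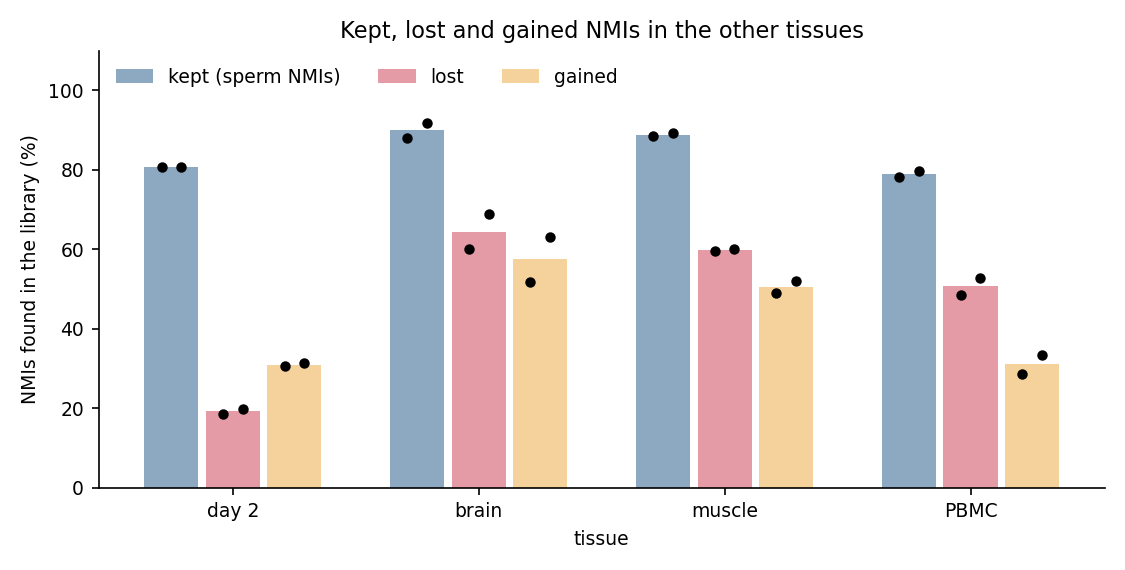
Share of kept sperm NMIs, lost NMIs and gained NMIs found in libraries of the other tissues (y axis, %). Bars are means of 2 replicate libraries and points are the libraries. Kept NMIs lie at 78.2% to 91.9%, lost NMIs fall to 18.6% and 19.9% in day 2, and gained NMIs lie above lost ones in day 2 alone.

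At the level of whole lists, sperm was the tissue that missed the fewest day 1 NMIs. Of the NMIs of day 1, 5.12% were absent from sperm, 14.2% from brain, 14.8% from muscle, 26.0% from PBMC and 29.7% from day 2. In turn, 19.8% of sperm NMIs were absent from brain, 20.3% from muscle, 24.9% from day 1, 30.8% from PBMC and 41.9% from day 2. NMIs of the adult tissues were absent from sperm in 26.3% (brain), 24.3% (muscle) and 20.0% (PBMC), each well above day 1. Day 2 lists, the shortest, had 2.09% absent from sperm.

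The count of NMIs of a single stage depended on the rule. Counting only NMIs shared by both replicates of a tissue, 8882 lost (28.5%) and 1819 gained NMIs (33.4%) were in no other tissue. In both sperm replicates and none of the other 10 libraries there were 3235 of the 125193 sperm NMIs, with a median width of 285 bp. In both day 1 replicates and none of the other 10 libraries there were 562 of the 106301 day 1 NMIs, with a median width of 251 bp. Of the 5442 gained NMIs, those present in all 4 embryo libraries and none of the other 8 numbered 159. Their median width was 355 bp, and they lay on 114 scaffolds.

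Lost NMIs were spread among kept ones. The median gap between neighbouring sperm NMIs was 1958.5 bp, against 2320 bp between day 1 NMIs. A lost NMI lay a median of 1619 bp from the nearest kept sperm NMI, and 19.7% lay within 500 bp of one. A kept NMI lay a median of 1195 bp from the next kept one, with 25.0% within 500 bp. A lost NMI was 1609 bp from the nearest day 1 NMI at the median, and 1.28% were closer than 200 bp. Few NMIs of any class lay that close. Measured to the nearest kept sperm NMI, 3.36% of lost NMIs were under 200 bp away, against 4.30% of kept sperm NMIs. Gained NMIs lay a median of 1528 bp from the nearest sperm NMI, with 4.85% closer than 200 bp. Neighbouring lost NMIs were 13524.5 bp apart at the median and neighbouring gained NMIs 93810 bp.

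Along a scaffold, a sperm NMI that followed a lost one was itself lost in 27.3% of cases, against 23.9% after a kept one. Between single libraries the difference of these shares was small but steady, at 3.40 points ± 0.264 (SD, n = 4 pairs), positive in all 4. The lost NMIs formed 23055 unbroken runs, of which 17250 were a single NMI, 1622 held 3 or more and 150 held 5 or more. Gained NMIs followed each other less often than lost ones did, but the excess over the share after a kept NMI was larger: 11.9% of day 1 NMIs that followed a gained one were gained, against 4.53% after a kept one. Between single libraries that difference was 7.15 points ± 0.576 (SD, n = 4 pairs). Neither difference was tested, since the pairs share libraries. They formed 4843 runs, of which 4356 were a single NMI and 85 held 3 or more.

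The longest run of lost NMIs held 13 in 144 kb at PIZI01000017v1:8098516-8242864 (petMar3 assembly). Their widths were 260 to 861 bp and their fold enrichments 2.82 to 14.6. The sperm libraries listed 13 and 15 intervals there, day 1 listed 6 and 5, day 2 listed 0 and 1, brain 4 and 6, muscle 1 and 2, and PBMC 3 and 4. Day 1 was thus thinned there rather than empty, and 7 of the 13 NMIs had no interval in either day 1 replicate. The longest run of gained NMIs was of another kind. It held 9 NMIs in 10.8 kb at PIZI01004468v1:1016-11820, with widths of 307 to 1208 bp and fold enrichments of 2.90 to 5.53. Day 1 listed 10 and 9 intervals there and day 2 listed 8 and 9, while sperm, brain, muscle and PBMC listed 0 in all 8 libraries.

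Individual NMIs were taken by length and by fold enrichment among those with no interval in either replicate of the other tissue. No gene annotation on petMar3 coordinates was used here, so they are given by position alone. The longest lost NMI, PIZI01000011v1:14749484-14751267, was 1784 bp long. Its fold enrichment was 12.6 and 10.4 in the sperm replicates, and it was listed in none of the other 10 libraries. The nearest day 1 NMI was 5667 bp away. The next, PIZI01000006v1:16254308-16256081, was 1774 bp long, with a fold of 9.54 and 26.0 in sperm. Its fold was highest in PBMC, at 44.0 and 34.4, and lower in muscle at 6.63 and 6.93 and in brain at 3.52 and 2.40. In day 2 it was listed in replicate 1 alone, at 3.93. The series holds no input library of PBMC, so PBMC folds may not compare with those of other tissues. The third, PIZI01000012v1:5301242-5302931, was 1690 bp long. Its fold was 15.5 and 11.4 in sperm, 5.67 and 4.21 in day 2, 7.42 and 5.70 in brain, 11.8 and 11.5 in muscle, and 29.0 and 25.3 in PBMC. The latter site was listed in both libraries of each tissue except day 1, and the former in all but day 1 and 1 day 2 library.

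The most enriched lost NMIs were missing from day 1 and listed elsewhere. PIZI01007572v1:7367-7829, 463 bp long, had a fold of 39.2 and 42.3 in sperm and 18.0 and 23.2 in day 2, and was listed in all 8 libraries outside sperm and day 1. PIZI01000037v1:4702867-4703339, 473 bp long, had a fold of 45.6 and 35.6 in sperm and 8.18 and 8.52 in day 2, and a day 1 NMI lay 307 bp away. PIZI01000041v1:2530931-2531374, 444 bp long, had 34.3 and 33.8 in sperm and 3.32 and 6.97 in day 2. In PBMC the last reached 40.5 and 28.4. All 3 were thus listed at day 2 in both libraries, at a lower fold than in sperm. They had been picked for a high fold in sperm. Day 2 lists also had a lower median fold, 8.42 and 8.88, than sperm lists, 12.1 and 11.4.

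Among gained NMIs, the most enriched were as strong in day 2 as in day 1. PIZI01000003v1:19182404-19183225, 822 bp long, had a fold of 47.6 and 44.7 in day 1 and 52.4 and 64.3 in day 2. It was at 7.57 and 5.24 in brain and 4.02 in muscle replicate 2, and was not listed in muscle replicate 1 or PBMC. PIZI01000143v1:255764-256765, 1002 bp long, had 37.8 and 29.8 in day 1 and 36.0 and 39.2 in day 2, and between 4.70 and 13.4 in the 6 adult somatic libraries. PIZI01011889v1:1-1244, 1244 bp long, had 23.6 and 28.3 in day 1 and 38.4 and 41.0 in day 2. It reached 39.6 and 81.5 in brain and stayed at 6.07 and 6.09 in muscle and 8.83 and 8.11 in PBMC, and its scaffold held no sperm NMI. Of the longest gained NMIs, PIZI01000027v1:4089763-4092078 was 2316 bp long, with a fold of 6.22 and 5.63 in day 1 and 5.75 and 5.01 in day 2. PIZI01006117v1:7782-9457 was 1676 bp long, with 13.2 and 15.2 in day 1 and 15.0 and 15.3 in day 2. Neither was listed in any sperm or adult somatic library.

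The longest gained NMI was the mitochondrial sequence (chrM). In day 1 nearly its whole length was listed as a single interval, from 59 to 15993 in replicate 1 (15935 bp, fold 8.45, −log10 q 264) and from 70 to 15919 in replicate 2 (15850 bp, fold 8.98, −log10 q 285). Day 2 listed 2 shorter intervals in each replicate, of 1632 and 1624 bp in all, at a fold of up to 14.3 and 12.8. Brain replicate 1 listed 323 bp at a fold of 1.87, and sperm, brain replicate 2, muscle and PBMC listed none. The amount of mitochondrial DNA in each sample was not tested. Leaving this sequence out, an alternative chosen after the data were seen, changed the gained NMIs from 5442 to 5441.

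The longest kept NMIs, picked by their unbroken length in sperm, were partly broken in day 1 and also in other tissues. PIZI01000016v1:13482151-13491898, 9748 bp long, was a single interval in each sperm replicate, at a fold of 45.5 and 45.8. Day 1 listed 3 and 4 intervals within it, with fold enrichments up to 23.1 and 19.3. Day 2 listed 3 and 7 there, brain 3 and 3, muscle 2 and 2, and PBMC 4 and 4. PIZI01000004v1:19642580-19650125, 7546 bp long, was likewise single in sperm, at 20.5 and 17.3, and was listed as 5 and 3 intervals in day 1, at up to 16.5 and 17.4. It was listed as 5 and 3 intervals in day 2, 2 and 1 in brain, 4 and 3 in muscle, and 3 and 2 in PBMC. PIZI01000015v1:3914194-3921698, 7505 bp long, was a single interval in all 4 sperm and day 1 libraries. The other tissues listed 2 and 1 intervals there in day 2, 1 and 1 in brain, 2 and 2 in muscle, and 5 and 5 in PBMC. Its fold was 19.9 and 17.8 in sperm and 22.8 and 21.9 in day 1, which made it higher in both day 1 libraries than in either sperm library.

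Lost NMIs were found on every large scaffold. The 136 scaffolds with 50 or more sperm NMIs held 112552 of them (89.9%). Their share lost ran from 8.25% to 39.7%, with quartiles at 23.0%, 25.0% and 27.4%. Their share gained ran from 0% to 13.4% with a median of 4.82%, and the lost share exceeded the gained share on each of the 136. Sperm held more NMIs than day 1, which by itself favours that order. A broken sperm NMI also counts once as kept in sperm and several times as kept in day 1. The order on these scaffolds is thus no separate evidence of loss. On the 4415 smaller scaffolds with sperm NMIs, 27.8% of 12641 sperm NMIs were lost against 24.6% on the larger ones. Of all day 1 NMIs off the 136 larger scaffolds, 9.21% were gained, against 4.67% on them. The 9.21% includes 308 day 1 NMIs on 240 scaffolds without a sperm NMI, which could only be gained. Scaffolds with a high share lost in day 1 also tended to have a high share absent from day 2 (Spearman's rho 0.556 over 136 scaffolds), and less so from brain (0.342), muscle (0.263) or PBMC (0.282). These coefficients share the sperm lists and describe these libraries only.

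**Figure D5:**
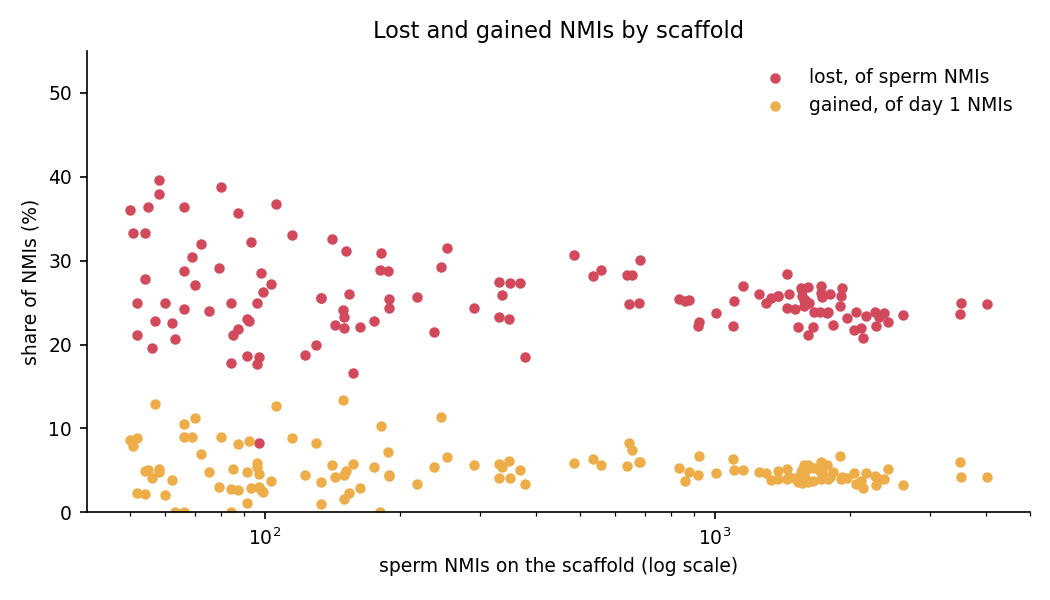
Share of sperm NMIs lost and of day 1 NMIs gained (y axis, %) on the 136 scaffolds with 50 or more sperm NMIs, against the number of sperm NMIs on the scaffold (x axis, log scale). Each scaffold is 2 points. The lost shares, mostly between 23.0% and 27.4%, lie above the gained shares and scatter more on scaffolds with few NMIs.

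The scaffolds with the largest share lost were PIZI01000149v1, with 23 of 58 NMIs (39.7%), PIZI01000066v1, with 31 of 80 (38.8%), and PIZI01000113v1, with 22 of 58 (37.9%). They differed in the adult tissues. On PIZI01000066v1, 63.75% of sperm NMIs were also absent from brain, 60.0% from muscle and 63.75% from PBMC, whereas on PIZI01000149v1 the shares were 25.9%, 24.1% and 36.2%. The smallest shares were on PIZI01000155v1, with 8 of 97 (8.25%), PIZI01000074v1, with 26 of 157 (16.6%), and PIZI01000112v1, with 17 of 96 (17.7%).

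Scaffolds with NMIs of sperm or day 1 alone usually held a single NMI. NMIs of both tissues were found on 3861 scaffolds. Sperm NMIs without any day 1 NMI were found on 690 scaffolds, 599 of which had 1 NMI, and 519 of the 690 had an NMI in an adult somatic library. A scaffold with a single sperm NMI can be among the 690 merely because that NMI was lost. The counts were not tested against those that the share lost alone would give. With no interval in either day 1 replicate, 290 scaffolds and 312 NMIs remained. The most sperm NMIs on such a scaffold were 4, on PIZI01000421v1 and PIZI01001170v1. On PIZI01000421v1, sperm libraries listed 5 intervals each, brain libraries 1 each and the other 8 libraries none. On PIZI01001170v1, the day 1 libraries did list 2 and 1 intervals. Day 1 NMIs without a sperm NMI were found on 240 scaffolds, and on 139 without an interval in either sperm library. PIZI01004468v1 held the most, with 9, followed by 4 each on PIZI01002724v1, PIZI01006937v1 and PIZI01008929v1. Scaffolds with intervals in both sperm libraries and in none of the 4 embryo libraries numbered 217, and 57 of them had an interval in all 6 adult somatic libraries. Scaffolds with intervals in all 4 embryo libraries and none of the other 8 numbered 16, PIZI01004468v1 among them.

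With each library cut to the same length the lost share still exceeded the gained share, and they drew closer. Each of the 4 libraries was cut to its 117229 NMIs with the largest −log10 q, the length of the shortest list. Then 90120 sperm NMIs (80.1%) were kept and 22432 (19.9%) were lost. Of the day 1 NMIs, 96900 were kept and 8030 (7.65%) were gained. The cut did not equalise the NMIs common to both replicates. After it, day 1 replicates still missed 12.4% and 13.1% of each other's NMIs, against 5.77% and 5.07% for sperm replicates. The part of this in the lost and gained shares was not tested. Lost NMIs had a median width of 346 bp against 571 bp for kept ones, and gained NMIs 269 against 410 bp. Of the lost NMIs 14.5% were found in day 2 and 75.3% in at least 1 adult tissue, and of the gained NMIs 20.6% and 65.0%. Without an interval in either replicate of the other tissue, 8684 lost and 5015 gained NMIs remained. With the strongest 50000 NMIs of each library, a list length chosen after the data were seen, 26.4% of sperm NMIs were lost and 13.9% of day 1 NMIs gained. Lost then meant sharing no base with the cut day 1 lists, and such an NMI can still be in the full ones. In the full lists the strongest 3 deciles of sperm NMIs held 404 lost and 37153 kept NMIs. For the other tissues full lists were used. Of the NMIs lost with the cut lists, 92.4% were found in day 2 and 96.6% in an adult tissue, against 99.6% and 98.5% of kept sperm NMIs. Of those gained the shares were 90.3% and 89.8%, against 99.4% and 98.4% of kept day 1 NMIs.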

How the data were processed

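BioCAP libraries were prepared by the authors from sea lamprey tissues, and the interval lists of 12 libraries of 6 tissues were read. The 5 input libraries, of sperm, day 1, day 2, brain and muscle, were not used here, and the series holds none of PBMC. Per the study's methods, reads were trimmed with Trimmomatic, aligned to the petMar3 germline assembly with Bowtie2, cleared of duplicates with Picard MarkDuplicates, and NMIs were called per library with MACS2 callpeak. The caller's options were not stated, and the tool versions in the study's reporting summary are not repeated here. The deposited lists give for each interval a display score, the fold enrichment at the summit as a ratio, the −log10 p-value and −log10 q-value written by the caller, and the summit's offset from the start. They contain no read counts, so depth and counting intervals are not given.

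Intervals of a library did not overlap, and NMIs of a tissue were the bases common to both replicates. The study also used NMIs common to both replicates, without stating whether shared bases or whole overlapping NMIs were taken. An overlap of 1 bp or more counted as found. The fold enrichment of an NMI was that of the strongest overlapping interval in each replicate, and deciles used the smaller of the 2 replicates. Groups and replicates came from the sample labels. The study calls its libraries biological replicates, and the labels do not name the animals. NMIs are not replicates, so counts, widths and shares are descriptions, set beside the 4 sperm and day 1 library pairings. The tests were an exact permutation test of the Jaccard difference over the 3 groupings of 4 libraries into pairs (one-sided) and an exact sign-flip permutation test over 4 tissues (two-sided).

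NMIs named were the 3 longest and the 3 most enriched lost and gained ones with no interval in either replicate of the other tissue, the 3 longest kept ones, the longest run of each class, the 3 scaffolds with the highest and the 3 with the lowest share lost (of those with at least 50 sperm NMIs), and the scaffolds with most NMIs in only 1 tissue. Ties at 3 NMIs are not named. The members, lists and tests were chosen with earlier results of these data known. Code was tested on simulated data before use. Analyses used Python 3.11.15, NumPy 2.4.6, pandas 2.3.3, SciPy 1.17.1 and Matplotlib 3.10.9. Alternatives covered stricter −log10 q and fold minimums, equally long lists, other overlap rules, and leaving out each library.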

Additional observations from a re-analysis of the deposited data

How the results depend on the processing

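The numbers of kept, lost and gained NMIs, 93996, 31197 and 5442, moved with strictness. With a −log10 q of 10 or more they became 55872, 55584 and 895, and with 5 or more 2683 were gained. Lists of equal length by fold enrichment gave 8820 gained, either replicate 9459, and absence from both replicates 13822 lost and 3037 gained. The strongest 50000 and 25000 NMIs, lengths added after the data were seen, gave 34052 and 14024 kept and 12204 and 7997 lost. Lost with these lengths refers to the cut day 1 lists and not to the full ones.

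The share lost was 33.9% at a −log10 q of 5, 49.9% at 10, 19.9% and 20.4% with equal lists by −log10 q and by fold, 17.9% with either replicate, 29.4% with a reciprocal overlap of 50% between replicates, 30.6% with 50% of the NMI covered, 11.0% when absent from both replicates and 36.3% in the strongest 25000. The share gained was, in the same order where it moved, 3.01%, 1.50%, 7.65%, 8.40%, 7.23%, 8.55%, 2.86% and 23.0%, and 13.9% in the strongest 50000. The share lost after a lost NMI was 35.9%, 51.6%, 22.6%, 22.8%, 20.7%, 31.2%, 32.7%, 14.5% and 38.8%, in the order given for the share lost.

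The width ratio of lost to kept NMIs was 0.624 at a fold of 5 or more, 0.606 and 0.600 with equal lists by −log10 q and fold, 0.539 with either replicate, 0.616 with reciprocal overlap, 0.635 with 50% covered, and 0.724 and 0.774 in the strongest 50000 and 25000. That of gained NMIs was 0.705 and 0.745 at a −log10 q of 5 and 10, 0.733 at a fold of 5, 0.674 with equal lists by fold, 0.619 with either replicate, 0.686 with whole NMIs of replicate 1, 0.723 with reciprocal overlap, 0.677 when absent from both replicates, and 0.771 and 0.817 in the strongest lists. All stayed below 1.

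Lost NMIs were found in an adult tissue in 52.2% of cases with either replicate and in 96.6% and 98.7% in the strongest 50000 and 25000. For gained NMIs the share was 58.1% at a −log10 q of 10, 55.7% at a fold of 5, 65.0% and 65.6% with equal lists by −log10 q and fold, 48.6% with either replicate, 74.1% with reciprocal overlap, and 89.8% and 92.2% in the strongest lists. Gained NMIs were found in day 2 in 25.6% and 28.5% at a −log10 q of 5 and 10, 25.0% at a fold of 5, 24.6% with equal lists by fold, 10.8% with either replicate, 41.2% with reciprocal overlap, 28.3% when absent from both replicates, and 90.3% and 98.9% in the strongest lists. The causes of these moves were not tested.

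Leaving out 1 library at a time gave 92615 to 102932 kept, 22261 to 46090 lost and 3253 to 12084 gained NMIs, shares of 17.8% to 32.6% lost and 3.06% to 10.1% gained, width ratios of 0.538 to 0.591 for lost and 0.637 to 0.672 for gained NMIs, 60.4% to 70.7% of lost and 50.7% to 63.1% of gained NMIs in an adult tissue, 10.4% to 27.8% of gained NMIs in day 2, and 20.2% to 34.6% lost after a lost NMI. The gained count was 3253 without sperm replicate 1, 5221 without sperm replicate 2, 9963 without day 1 replicate 1 and 12084 without day 1 replicate 2. A tissue with a library left out was taken from its other list alone, without the rule of both replicates.

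The Jaccard difference stayed above 0 in the alternatives run (0.0347 to 0.215), with 0.0473 when NMIs were counted in place of bases. Replicate numbers name libraries and no source pairs them. With the replicate number as a block the difference was 0.112 with an exact permutation p of 0.5, the smallest it allows. The difference between lost and kept NMIs in other tissues stayed negative, from −46.4 to −1.33 points, the latter in the strongest 25000. Fold in sperm was not held equal in it. Absence from the day 1 lists means not detected, and depth and tissue cannot be told apart there. Neither exact test used could pass 0.05, with 3 groupings of the libraries and 16 sign flips.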
